A study of Arabidopsis thaliana with 12 samples.

Results

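The genes described here are those whose current symbol is CHR followed by a number. They encode putative chromatin remodellers of the SNF2 type in Arabidopsis thaliana. Of 14 genes with such a symbol in RefSeq, 8 had a probe set assigned to a single gene and are described here: CHR17 (AT5G18620), CHR18 (AT1G48310), CHR23 (AT5G19310), CHR24 (AT5G63950), CHR31 (AT1G05490), CHR34 (AT2G21450), CHR40 (AT3G24340) and CHR42 (AT5G20420). RefSeq writes CHR31 in lower case. CHR1, CHR4, CHR5, CHR8, CHR11 and CHR38 were not analysed here. CHR31 had 2 probe sets, of which the one with the higher mean was used, and the other members had 1 each.

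SNF2 proteins are ATPases that use ATP hydrolysis to slide, space, eject or exchange nucleosomes, or to move along DNA, and so alter access to it. Plants hold many of them. ISWI-type enzymes space nucleosomes over gene bodies, SWI/SNF-type enzymes loosen chromatin at regulatory regions, and a plant-specific branch serves RNA-directed DNA methylation, in which small RNAs guide methylation of transposons and repeats. In seedlings such enzymes are known to act in growth, in the timing of development and in responses to hormones and stress.

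The study crossed light with the stress hormone abscisic acid (ABA). Seedlings spent 9 days at 22 °C under constant white light, then 24 hours under treatment, and at 10 days old their aerial parts gave the RNA. The groups were white light alone (WL), white light with ABA (WLABA), white light with supplemental far-red light (FR), which imitates the shade of a canopy, and far-red light with ABA (FRABA). Each group had 3 arrays, named biological replicates in the labels. Every p-value of the main fit rests on their spread, pooled over all groups and drawn by limma towards that of all probe sets. No strain or mutant is named in the labels. They print the ABA dose as 1 mM, the white light as 80 mmol/m2 s and the added far-red light as 6 in that unit.

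The medians of the 12 arrays lay between 5.45 and 5.62 log2 units, and between 60.6% and 67.2% of probe sets were called present. FR replicate 3 had the highest value of both. The FR arrays had a mean of array medians 0.09 log2 units above that of the WL arrays. Centring each array on its median moved the share of higher calls in that comparison from 63.2% to 23.2%. Textbook targets of the treatments were read, from lists chosen with earlier results of these data known. COR15A, a cold-regulated gene that ABA induces, was 3.21 log2 units higher with ABA in white light (SE 0.20, limma adjusted p = 1.2e-07). Of 6 listed ABA targets 5 were measured and all 5 were called higher there, against 6.43% of all probe sets. COR15A had the largest difference of them and COR47 the smallest, at 0.61 (limma adjusted p = 0.0174). The shade marker IAA29 was dim: it was called absent on all 3 WL arrays, between 3.65 and 4.06 log2 units, and its FR arrays, between 4.68 and 4.89, were called marginal, absent and present. Its groups did not overlap (limma adjusted p = 6.0e-04), and no fold is given against a group not above background. The green-tissue genes RCA, PRK, LHCB4.1 and LHCB4.2 were called present on all arrays, and the root markers EXPA7 and EXPA18 were called absent on all 12. CLV3, the one measured marker of the shoot meristem of 4 listed, was also absent on all 12.

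The 8 members fell into those with and those without a detectable transcript in this tissue. Of the 8 genes, 4 were called present on at least 3 arrays: CHR17 and CHR23 on all 12, CHR18 on 9 and CHR24 on 9. The other 4 were CHR31, CHR34 and CHR42, absent on all 12 arrays, and CHR40, present on 1 array only (WLABA replicate 1). Among all tested probe sets 67.4% were present on at least 3 arrays and 24.7% were absent on all. Because a probe set that is absent in both groups has no fold, the differences of these 4 are given as values near background.

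**Figure D1:**
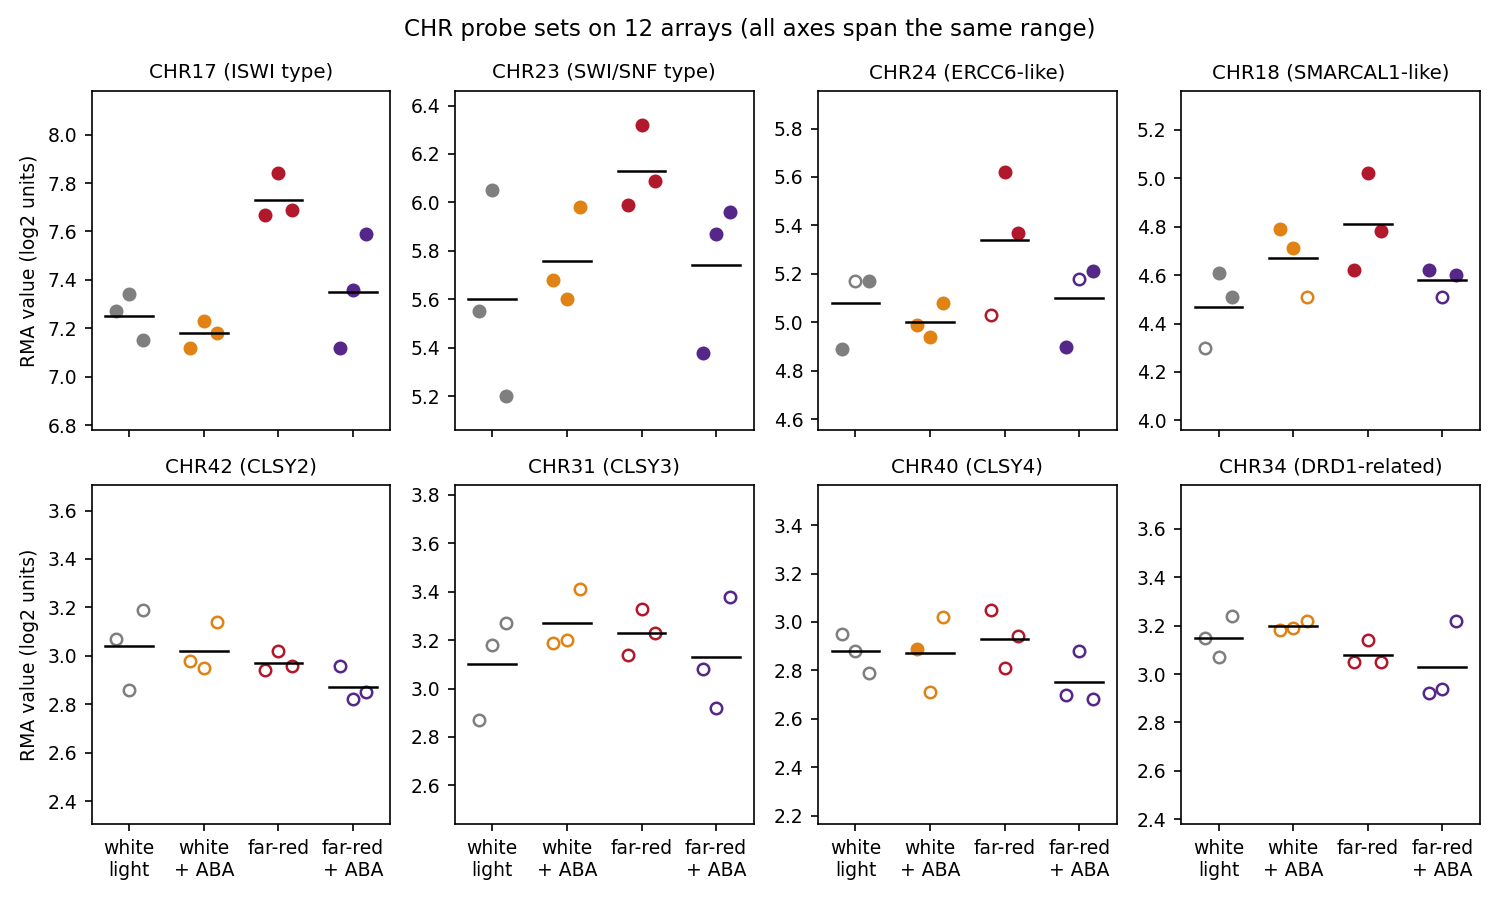
RMA expression values (y axis, log2 units) of the 8 CHR probe sets on every array, by group (x axis). Each point is 1 array, filled where the detection call was present and open where it was marginal or absent, and the bars are group means (n = 3). The 3 FR arrays of CHR17 lie between 7.67 and 7.84, above the highest value of each other group, and the lower row holds the genes with hardly any present call.

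CHR17 encodes an ISWI-type ATPase that acts with its close relative CHR11 in nucleosome spacing and in keeping plants in the vegetative phase. It was the one member called in any comparison. CHR17 stood at 7.27, 7.34 and 7.15 log2 units on the WL arrays. Under far-red light the values were 7.67, 7.84 and 7.69. Every FR array was above every WL array. The transcript rose 1.40-fold with far-red light, by 0.48 log2 units (SE 0.11, 95% interval 0.26 to 0.71, n = 3 against 3, limma adjusted p = 0.0183). Of all probe sets, 2.98% had a difference at least as large in either direction.

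With ABA present the same light gave a smaller difference for CHR17. The WLABA arrays stood at 7.12, 7.23 and 7.18 and the FRABA arrays at 7.12, 7.36 and 7.59. The FRABA values were the most spread of the 4 groups, with an SD of 0.23 against 0.05 to 0.10 elsewhere, and they overlapped those of WLABA. The difference was 0.18 log2 units (SE 0.11, interval -0.05 to 0.40, adjusted p = 0.544).

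Read the other way, ABA lowered CHR17 under far-red light. All FRABA arrays lay below all FR arrays, and the transcript fell 1.30-fold (-0.38, SE 0.11, interval -0.61 to -0.15, limma adjusted p = 0.0332). In white light the ABA difference was -0.08 (interval -0.30 to 0.15, adjusted p = 0.785). The far-red comparison without ABA and the ABA comparison under far-red light share the 3 FR arrays, so that these calls are not separate evidence. Whether the ABA effect differed between the light conditions is the question of the interaction, which was -0.31 (SE 0.15, interval -0.63 to 0.02, adjusted p = 0.782) and did not pass. Averaged over both ABA levels far-red light raised CHR17 by 0.33 log2 units (SE 0.08, adjusted p = 0.0158), and averaged over both light conditions the value with ABA was 0.23 lower (-0.23, SE 0.08, adjusted p = 0.0496).

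The order of group means for CHR17 was FR, FRABA, WL and WLABA. FR did not overlap FRABA, whereas FRABA overlapped WL and WL overlapped WLABA. Median centring of the arrays left the far-red rise at 0.39 log2 units (adjusted p = 0.0339). It lost its call without WL replicate 1 (0.49, adjusted p = 0.0584), WL replicate 3 (0.43, 0.0780) or FR replicate 2 (0.43, 0.0806), in a range of adjusted p from 0.00441 to 0.0806 over the alternatives. The ABA fall under far-red light lost its call when only the FR and FRABA arrays entered the fit (adjusted p = 0.0863). It also did so without any one of FR replicates 1, 2 and 3 (-0.41, -0.33 and -0.40) or FRABA replicates 1 and 2 (-0.26 and -0.38). The averaged ABA fall lost its call without any single array other than WL replicate 3 and FRABA replicate 3, with values from -0.24 to -0.17. Whether the CHR17 probe set also takes up transcripts of the paralog CHR11 was not tested.

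CHR23, also known as MINU2, is a SWI/SNF-type ATPase that acts with CHR12 in maintaining stem cells and embryo growth. Its WL arrays stood at 5.55, 6.05 and 5.20 log2 units, the widest spread of any member in any group (SD 0.43). The FR arrays stood at 5.99, 6.32 and 6.09. Only WL replicate 2 reached into the FR range. The difference of 0.53 log2 units was the largest of any member in this comparison but did not pass (SE 0.19, interval 0.13 to 0.93, adjusted p = 0.106). With each of the 12 arrays left out in turn it ran from 0.33 to 0.76. It passed only without WL replicate 2, at 0.76 (limma adjusted p = 0.0183).

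With ABA, CHR23 stood at 5.68, 5.60 and 5.98 in white light and at 5.38, 5.87 and 5.96 under far-red light. These groups overlapped, with a difference of -0.02 (interval -0.42 to 0.38, adjusted p = 0.982). Under far-red light all 3 arrays with ABA lay below all 3 without it, at -0.39 log2 units (SE 0.19, interval -0.79 to 0.01, adjusted p = 0.221). In white light the ABA difference was 0.16 (interval -0.24 to 0.56). The interaction was -0.55, the largest of the 8 members in size (SE 0.27, interval -1.11 to 0.02, adjusted p = 0.781). The order of means was FR, WLABA, FRABA and WL, and of the neighbouring groups only FR and WLABA did not overlap.

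CHR24 and CHR18 are kin of repair enzymes. RefSeq gives CHR24 the synonyms ERCC6 and RAD26, the human and the yeast factor of transcription-coupled DNA repair. CHR24 stood at 4.89, 5.17 and 5.17 log2 units in WL and at 5.03, 5.62 and 5.37 in FR. The far-red values overlapped those of white light, and the difference was 0.26 (SE 0.13, interval -0.02 to 0.55, adjusted p = 0.264). The WLABA arrays stood at 4.99, 4.94 and 5.08 and the FRABA arrays at 4.90, 5.18 and 5.21. Its ABA difference was -0.24 under far-red light (interval -0.52 to 0.04, adjusted p = 0.303) and -0.07 in white light (interval -0.36 to 0.21). All neighbours in its order of means, FR, FRABA, WL and WLABA, overlapped.

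CHR18 resembles SMARCAL1, an enzyme that in animals re-anneals DNA strands at stalled replication forks. It stood at 4.30, 4.61 and 4.51 log2 units in WL and at 4.62, 5.02 and 4.78 in FR. Every FR array was above every WL array, though by as little as the distance from 4.61 to 4.62. The difference of 0.33 did not pass over all probe sets (SE 0.11, interval 0.10 to 0.57, limma adjusted p = 0.0897). With each of the 12 arrays left out in turn it ran from 0.23 to 0.43. It passed only without FR replicate 1, at 0.43 (limma adjusted p = 0.0492). With ABA it stood at 4.79, 4.71 and 4.51 in white light and at 4.62, 4.51 and 4.60 under far-red light. These groups overlapped, with a difference of -0.09 (interval -0.33 to 0.15, adjusted p = 0.786). The ABA difference was 0.20 in white light (interval -0.04 to 0.44) and -0.23 under far-red light (interval -0.47 to 0.01). The interaction of -0.43 was the one among the members with an unadjusted p under 0.05 (SE 0.16, interval -0.77 to -0.09, adjusted p = 0.755).

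CHR42, CHR31 and CHR40 are CLSY2, CLSY3 and CLSY4 of the CLASSY family, which recruits RNA polymerase IV to the loci that make small RNAs for DNA methylation. CHR34 is a relative of DRD1, a factor of RNA polymerase V in the same pathway. Their values lay close to background in every group: CHR42 between 2.82 and 3.19 log2 units, CHR31 between 2.87 and 3.41, CHR40 between 2.68 and 3.05 and CHR34 between 2.92 and 3.24. The second probe set of CHR31 was also absent on all 12 arrays, between 2.69 and 3.41. CHR31 stood at 2.87, 3.18 and 3.27 in WL, 3.19, 3.20 and 3.41 in WLABA, 3.14, 3.33 and 3.23 in FR, and 3.08, 2.92 and 3.38 in FRABA. All 4 groups overlapped. CHR40 stood at 2.89, 2.71 and 3.02 in WLABA, and its single present call came from the array at 2.89, which was not its highest value. Each of the 4 genes overlapped between all neighbours in its order of group means, which sorting by mean makes likely. CHR34 did not overlap between WLABA (3.18 to 3.22) and FR (3.05 to 3.14), which are not neighbours. In the 4 comparisons between groups all 4 genes overlapped, while 18.8% to 27.7% of all probe sets did not.

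No difference of these 4 genes passed in any comparison. The values furthest from 0 between 2 groups were -0.18 for CHR40 with ABA under far-red light (interval -0.39 to 0.03) and -0.17 for CHR34 with far-red light in the presence of ABA (interval -0.36 to 0.02). At signals this low the arrays cannot show whether a transcript is absent or below detection.

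**Figure D2:**
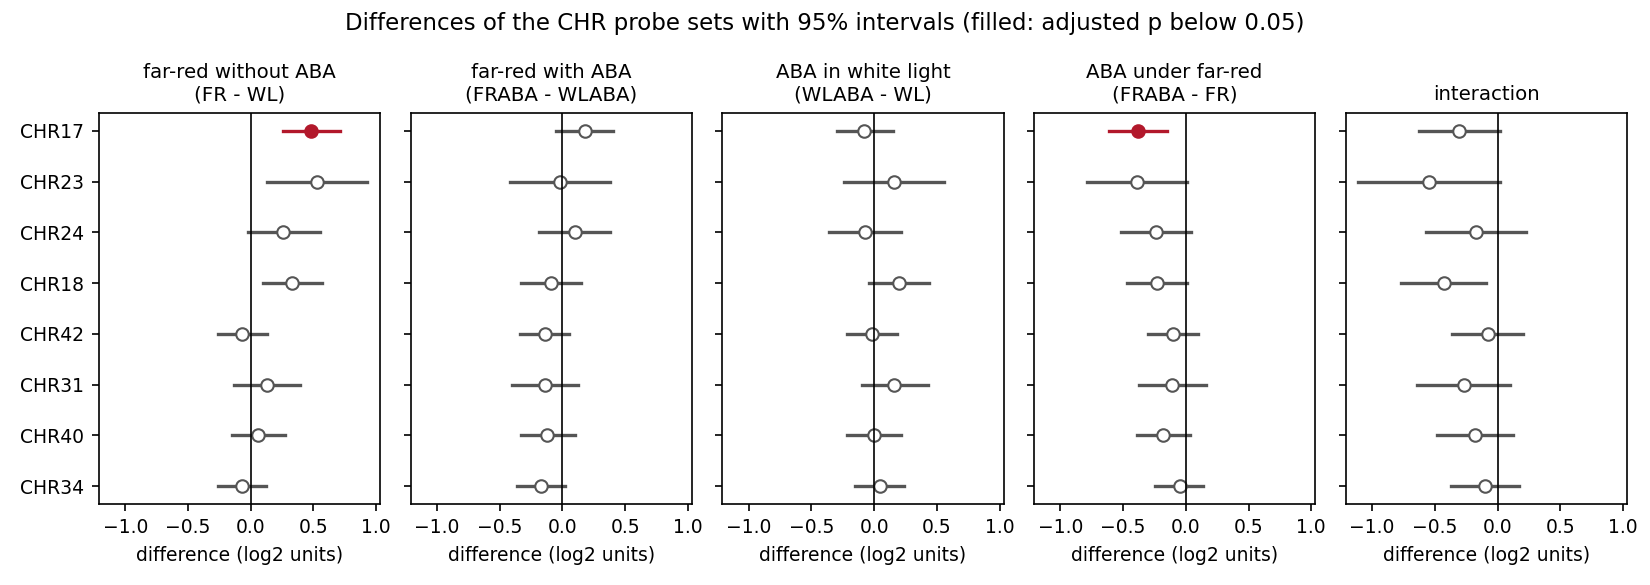
Differences of the 8 CHR probe sets (x axis, log2 units) in the 4 comparisons between groups and in the interaction, 1 gene per line. Points are limma estimates from all 12 arrays, lines are 95% intervals, and red filled points passed an adjusted p of 0.05. CHR17 passed with far-red light without ABA at 0.48 and with ABA under far-red light at -0.38, and no other point is filled.

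Counted over the 8 members, far-red light without ABA called 1 (CHR17, higher), against 6.12% of all probe sets tested. At an unadjusted p under 0.05 there were 3 of 8 (CHR17, CHR18 and CHR23), against 22.1% of all probe sets. The groups did not overlap for 2 of 8 members (CHR17 and CHR18), against 25.5% of all probe sets. The median member difference was 0.20 log2 units, and the median of all probe sets was 0.00. After centring each array on its median the latter became -0.091. Far-red light with ABA called 0 of 8 members by limma, against 0.369% of all probe sets. At an unadjusted p under 0.05 it was also 0 of 8, against 11.3%. There 0 of 8 members had groups that did not overlap, against 18.8%. The median member difference was -0.10. Averaged over ABA levels, 1 of 8 was called against 9.28%.

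ABA in white light called 0 of 8 members by limma, against 6.43% of all probe sets. At an unadjusted p under 0.05 it was also 0 of 8, against 19.1%. The groups overlapped for all 8, while 24.6% of all probe sets had groups that did not. The median member difference was 0.02. ABA under far-red light called 1 of 8 (CHR17, lower), against 10.3%, and 1 of 8 at an unadjusted p under 0.05, against 23.5%. The groups did not overlap for 2 (CHR17 and CHR23), against 27.7%. There the median member difference was -0.20 and that of all probe sets -0.01. Averaged over light conditions 1 of 8 was called, against 17.2%. The interaction called 0 of 8 by limma, against 0% of all probe sets. At an unadjusted p under 0.05 it was 1 of 8 (CHR18), against 6.44%, or 1465 probe sets. With 8 members a single call is 1 in 8, so these counts do not set the family apart from the array as a whole.

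Other chromatin genes were read from lists made from textbook knowledge, but chosen with earlier results of these data known. Of 26 further SNF2 genes without a CHR symbol, 9 were measured. ATRX, a histone H3.3 depositing factor, rose with far-red light by 0.53 log2 units (SE 0.09, adjusted p = 0.00568). Its arrays stood at 5.63, 5.81 and 5.66 in WL and at 6.30, 6.22 and 6.17 in FR, without overlap. With ABA present its far-red difference was 0.27 (adjusted p = 0.285). ATRX was the 1 of 9 called higher in the far-red comparison without ABA, and 0 were called lower. Of all probe sets 6.12% were called there in either direction. The list's median was 0.18. Among the 8 uncalled genes INO80, the ATPase of the complex of that name, had 0.23 (adjusted p = 0.169) and ETL1 0.18 (adjusted p = 0.239). The lowest value was -0.03, for AT5G43530, which was present on no array. RAD5, of the tolerance to DNA damage, had 0.15 (adjusted p = 0.507). AT2G40770, AT1G05120 and AT5G05130 had 0.20, 0.05 and -0.00, and AT1G02670 had 0.35 (adjusted p = 0.0835).

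ABA under far-red light called 1 of these 9 genes lower, against 10.3% of all probe sets called in either direction. This was AT1G02670, at -0.38 (SE 0.11, limma adjusted p = 0.0444). Its FRABA arrays stood at 3.58, 3.61 and 3.75, with 1 of 3 called present. The list's median was -0.09. AT1G02670 was called present on 4 of 12 arrays, and its call was lost in 10 of 21 alternatives, with adjusted p up to 0.158. In white light ABA called 0 of 9 by limma, against 6.43% of all probe sets, and the list's median was 0.10.

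Partners of the remodellers were measured in part. The one measured gene of 3 in the list of ISWI partners, AT3G43240, rose with far-red light by 0.53 log2 units (SE 0.09, interval 0.34 to 0.72, adjusted p = 0.00422). It stood at 5.95, 5.86 and 6.01 in WL and at 6.35, 6.50 and 6.56 in FR. Its far-red difference with ABA was 0.27 (adjusted p = 0.256), and ABA under far-red light gave -0.15 (adjusted p = 0.350), where CHR17 fell. ATRX and AT3G43240 kept their far-red calls in all 21 alternatives, with values from 0.44 to 0.59 for either gene.

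Of 15 SWI/SNF partners 9 were measured. With far-red light without ABA 0 were called by limma, against 6.12% of all probe sets, and the list's median was 0.23. Examples, chosen after their values were seen, were CHC1 at 0.22 (adjusted p = 0.104) and CHB3, a SWI3-type scaffold protein, at 0.29 (adjusted p = 0.168). AT1G76380 of this list rose with ABA in white light by 0.42 (SE 0.10, limma adjusted p = 0.0158), as the 1 of 9 called there, against 6.43% of all probe sets. It lost this call without WL replicate 1 or WLABA replicate 3. Of 12 genes of the SWR1 and INO80 complexes and histone H2A.Z, 2 were measured. AT5G67630 fell with ABA under far-red light (-0.37, SE 0.11, adjusted p = 0.0484), a call lost in 10 of 21 alternatives, with adjusted p up to 0.178. SWC2 had -0.16 there.

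Few genes of DNA methylation and histone handling were measured. DME, a DNA glycosylase that removes methylated cytosine, was the 1 measured gene of 24 in the DNA methylation list. It was called higher with far-red light at 0.41 (SE 0.11, adjusted p = 0.0407), and 11 of 21 alternatives lost the call, including median centring (adjusted p up to 0.148). The histone chaperone genes SGA2 and ASF1B, 2 of 14 listed, had far-red differences of -0.03 and -0.04, and the deacetylase gene HDA15, 1 of 9 listed, had 0.10. None of the 11 Polycomb genes, the 7 DNA damage genes and the 14 ABA signalling genes listed was analysed here.

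Markers of dividing cells are given beside the CHR17 result. Of 12 listed, 3 were measured, the mitotic kinases AUR1 and AUR2 and the replication factor PRL, and all were present on all 12 arrays. Their summed log2 values ran from 23.02 to 23.20 in WL and from 23.49 to 23.93 in FR, without overlap. They ran from 22.52 to 22.96 in WLABA and from 22.81 to 23.42 in FRABA. Among single probe sets, 25.5% had WL and FR values that did not overlap. With far-red light 0 of the 3 markers passed by limma, against 6.12% of all probe sets. PRL had 0.37 (limma adjusted p = 0.0715), AUR2 0.18 and AUR1 0.13. With ABA under far-red light AUR1 fell (-0.32, SE 0.09, adjusted p = 0.0420), a call lost in 9 of 21 alternatives, and PRL had -0.33 (adjusted p = 0.0819). Their part in the CHR17 result was not tested. In whole aerial tissue fewer cells of a type and less RNA per cell cannot be told apart.

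Among the other marker lists, the stomatal sums lay higher in FR than in WL and the green-tissue sums lower, both without overlap. Of single probe sets, 25.5% had WL and FR values that did not overlap. The summed log2 values of SPCH, FMA and MUTE, transcription factors of the stomatal lineage and 3 of 4 listed, ran from 15.12 to 15.36 in WL and from 15.69 to 15.79 in FR. They ran from 15.01 to 15.07 in WLABA and from 14.91 to 15.48 in FRABA. SPCH was called present on 8 of 12 arrays, on 1 of 3 in WL and in FRABA and on all 3 in the other groups. It rose with far-red light averaged over both ABA levels (0.24, SE 0.06, limma adjusted p = 0.0284). It was the 1 of 3 called there, against 9.28% of all probe sets, and FMA and MUTE had 0.03 and 0.04. With far-red light without ABA 0 of the 3 were called, against 6.12%, and SPCH had 0.30 (limma adjusted p = 0.0568). The part of SPCH in the CHR17 result was not tested. ABA lowered SPCH in white light (-0.35, adjusted p = 0.0276) and under far-red light (-0.47, adjusted p = 0.00331), and FMA under far-red light (-0.29, adjusted p = 0.0420). MUTE passed in no comparison between groups, and its ABA differences were 0.16 in white light and 0.22 under far-red light. The root markers EXPA7 and EXPA18, 2 of 4 listed, summed to between 7.45 and 8.20 in WL and between 7.28 and 7.60 in FR, with all calls absent. The 4 green-tissue genes summed to between 50.81 and 51.07 in WL and between 50.46 and 50.72 in FR. LHCB4.2, a light-harvesting protein, fell among them with far-red light (-0.37, SE 0.09, limma adjusted p = 0.0270). It was the 1 of 4 called there, against 6.12% of all probe sets. RCA, PRK and LHCB4.1 had 0.02, 0.09 and -0.03, so that the lower sum rested mainly on LHCB4.2. The reference genes PEX4, AT4G34270 and AT2G28390, 3 of 5 listed, had far-red differences of -0.11, -0.01 and 0.09. By limma 0 of these 3 were called, against 6.12% of all probe sets.

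**Figure D3:**
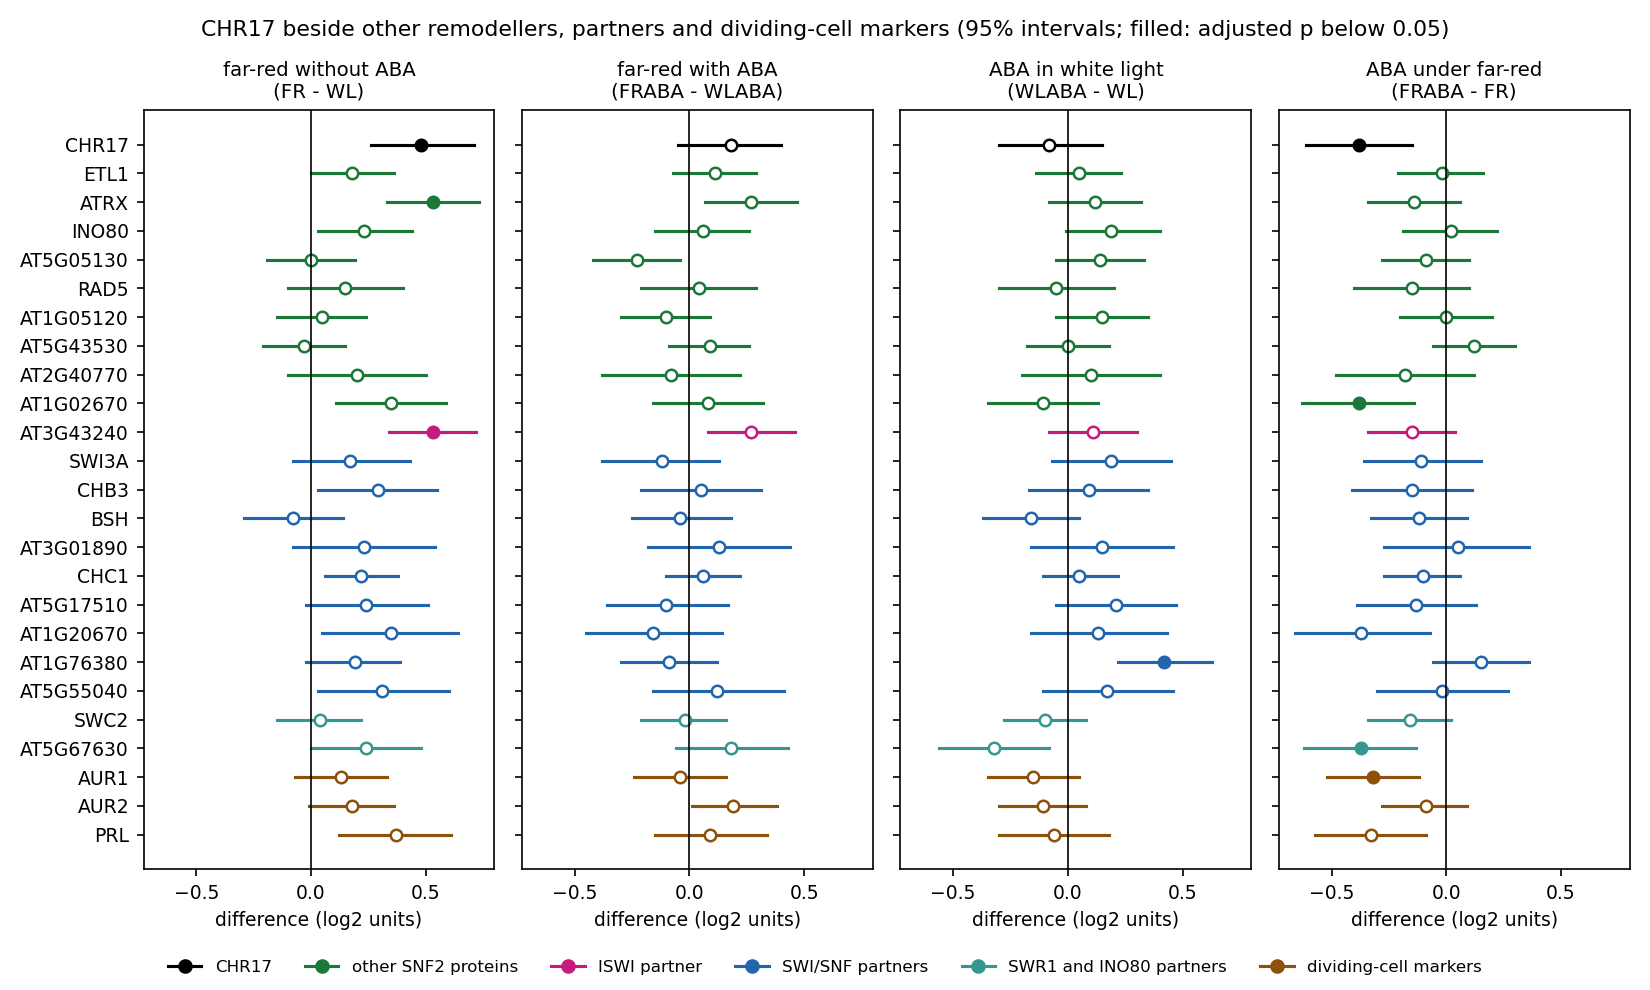
Differences (x axis, log2 units) of CHR17, of the measured SNF2 genes without a CHR symbol, of partner genes and of 3 dividing-cell markers in the 4 comparisons between groups. Points are limma estimates with 95% intervals, coloured by list, and filled where the adjusted p was under 0.05. With far-red light without ABA, CHR17 (0.48), ATRX (0.53) and AT3G43240 (0.53) are filled, and in the far-red comparison with ABA no point is filled.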

How the data were processed

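RNA of 12 Arabidopsis samples was hybridised to Affymetrix arrays. The deposited values are log2 expression values that the authors made with RMA and the affy software (per the submitters' processing notes), and each sample's table also gives detection calls (present, marginal or absent) made with MAS5. RMA quantile-normalises all arrays together, so that a true shift of all genes would be largely hidden. The deposited values still differed between arrays, with medians from 5.45 to 5.62 log2 units and a mean 0.09 higher in FR than in WL. The tables hold no depth, and the number of arrays limits the precision. Of 22746 probe sets left after 64 controls, 13513 had 1 gene, 503 several and 8730 were not listed in the platform annotation. Of the former, 13436 were matched to current RefSeq names (TAIR10.1).

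All 12 arrays entered one limma 3.58.1 fit (R 4.3.3) with a mean per group, and contrasts were adjusted by Benjamini-Hochberg over all 22746 probe sets at 0.05. No filter was applied. The fit was tested on simulated data. The members and gene lists were chosen with earlier results of these data known. The text names every member, every measured SNF2 gene without a CHR symbol and marker used, and of the other lists up to 2 called genes in each direction per contrast. CHB3, CHC1, SWC2, SGA2, ASF1B, HDA15 and the reference genes were added after their values were seen. Alternatives were the series' second value table (equal to within 5.0e-09), median centring, quantile normalization, a trended robust prior, array weights, a filter on present calls, only the groups compared, a replicate block, the mean of a gene's probe sets, and leaving out each array.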

Additional observations from a re-analysis of the deposited data

How the results depend on the processing

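The count of CHR genes called with ABA under far-red light was 0 with only the groups compared and 0 to 1 with single arrays left out. Leaving out single arrays gave 0 to 2 with far-red light without ABA and 0 to 1 for the averaged ABA effect. Over all probe sets the calls with far-red light without ABA numbered 642 with only the groups compared and 418 to 1689 with single arrays left out. With far-red light and ABA they numbered 149 with a trended robust prior, 137 with array weights and 31 to 81 with arrays left out. The interaction called 2 with the trended robust prior and 0 to 2 with arrays left out. The other ranges were 908 to 1510 for ABA in white light, 1518 to 2434 for ABA under far-red light and 1133 to 2571 for the averaged far-red effect. Of 1124 alternative values for 56 member results, 1066 kept direction and side of the threshold, 19 lost a call, 2 gained one and 37 changed sign. These 37 belong to 14 results, and the lowest adjusted p among the 37 was 0.765. Some alternatives could hardly change a result, so the 1066 are not a measure of stability. The second value table was equal to the first, and the mean of a gene's probe sets altered only CHR31. Leaving out an array of a group not compared left the difference as it was.

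Sign changes under a setting were CHR18 averaged ABA effect with array weights (0.004), CHR31 ABA under far-red light as the mean of its probe sets (0.050), CHR31 averaged far-red effect (0.047), CHR34 averaged ABA effect (0.004) and CHR40 ABA in white light (0.007) with quantile normalization. With median centring they were CHR34 ABA in white light (-0.010), CHR40 far-red without ABA (-0.035) and the CHR42 interaction (0.002). With arrays left out, CHR18, CHR31 and CHR34 ran from -0.062 to 0.039, -0.036 to 0.078 and -0.053 to 0.023 for the averaged ABA effect. For ABA in white light CHR23, CHR40 and CHR42 ran from -0.044 to 0.382, -0.078 to 0.077 and -0.106 to 0.054. The averaged far-red effect ran from -0.068 to 0.046 for CHR31 and from -0.07 to 0.007 for CHR40. CHR23 with far-red light and ABA ran from -0.129 to 0.161, CHR42 with far-red light alone from -0.152 to 0.009, and the CHR42 interaction from -0.153 to 0.008. The causes of these changes were not tested.

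Median centring moved the share of higher calls from 63.2% to 23.2% with far-red light without ABA, from 62.5% to 43.9% with ABA in white light, from 48.9% to 59.6% with ABA under far-red light and from 57.1% to 28.8% for the averaged far-red effect. Quantile normalization gave 49.8% for the first. Deviations of same-numbered arrays correlated between -0.05109 and 0.2732 (18 pairs, median 0.09178). Those of arrays with other numbers correlated between -0.2112 and 0.133 (36 pairs, median -0.03933). The main fit did not take the numbers as pairing, and whether same-numbered arrays shared a source of variation was not tested. A replicate block gave more calls than the main fit, 1762 against 1393 with far-red light without ABA and 1760 against 1463 with ABA in white light. It gave 2694 against 2352 with ABA under far-red light and 103 against 84 with far-red light and ABA. The CHR17 calls stayed in place. Genes called absent on nearly all arrays have no fold, and 3 arrays per group limit the precision.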
